A study of Mus musculus with 6 samples.

Results

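FANTOM3 clones are mouse cDNAs from a large project that collected and sequenced full-length transcripts, and each clone has a row of its own in the deposited gene table. Described here are the clone rows that lie outside every gene the table names: rows whose interval overlaps no row with another kind of name on either strand and whose mean count over the 6 libraries is at least 10. Of 56826 gene rows, 33353 are FANTOM3 rows and 3046 are members by this rule. A further 3602 clone rows outside named genes fell under the count limit, 465 of them with 0 counts in all libraries, and 26703 clone rows overlapped a named row. The members were thus chosen by position and by the mean count of both groups together, not by the difference between them. Just inside it was 1600022D10 with a mean count of 10 (9, 16 and 13 in TBI libraries, 10, 10 and 2 in control libraries), and just outside was I0C0043H22 with 9.83 (14, 7 and 18 in TBI libraries, 4, 8 and 8 in control libraries).

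The libraries came from cortex of wild-type C57BL/6 mice, an inbred strain: 3 libraries from tissue around the focus of a traumatic brain injury (TBI) at 24 h, and 3 from normal cortex (control). Total RNA was sequenced to compare coding and long non-coding transcripts between injured and normal cortex. The sources used here do not give how the injury was made, the age or sex of the mice, or whether each library is 1 mouse, so a p-value measures the spread between libraries only. Total counts over gene rows were 68808787 to 72169720 in TBI libraries and 67252519 to 83929814 in control libraries. Because these are bulk tissue samples, fewer cells of a type and less RNA per cell cannot be told apart in any value below.

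Transcription outside annotated genes has several known sources. Messages can run past an annotated end through a distal polyadenylation site, promoters can start transcripts on both strands, microRNA (miRNA) hairpins are cut from long primary transcripts, and long non-coding RNA (lncRNA) genes are often missing from older gene sets. A clone row downstream of a gene on the same strand, upstream on the opposite strand, beside a hairpin or far from any gene is the kind of row in which each of these would be found.

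The word intergenic holds for the gene names of the table and less for later annotations. Coordinates are those of the deposited table, build mm10 (GRCm38). Set against GENCODE M21, 409 members lay in exons of a protein-coding gene on the same strand, 633 in exons of another kind of gene, 277 in the body (introns included) of a protein-coding gene, 523 in the body of another kind of gene, and 179 met a gene on the opposite strand only. No GENCODE gene overlapped 1021 members, no gene of the RefSeq table of GRCm38.p6 overlapped 1454, and 712 had neither. Another 4 members lie on unplaced scaffolds. A total of 191 clone rows were kept out of the members only by 1 named row longer than 3 Mb, 91 of them with a mean count of at least 10.

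The members were short, mostly unspliced rows of low level. Their median row length was 1877.5 bases, and 2402 (78.9%) were unspliced, with a row length within 1% of the genomic span. Distances are to the edge of the named row in the deposited table. The median distance to the nearest named gene was 3507 bases, with quartiles of 708 and 20621 bases and a largest distance of 1732184 bases. By position, 1247 lay downstream of the nearest gene on the same strand, 930 upstream on the opposite strand, 471 upstream on the same strand and 382 downstream on the opposite strand. Many rows share reads: the members form 2559 loci of overlapping intervals, and 833 members share a locus with another. Nuclear members had a median mean count of 55.5 and together held 0.928 to 0.952% of the total count in TBI libraries and 0.921 to 0.993% in control libraries.

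Sequences are shown for the clone with the largest rise, for the clones with the largest falls together with a promoter beside one of them, and for the miRNAs whose hairpins lie near clones that rose. Clone sequence was read from exons of GENCODE M21 transcripts that cover the clone, and promoter and miRNA sequences are from RefSeq, GRCm38.p6. The end of F630314A02 (chr5:43784046-43784345, minus strand) carries the polyadenylation hexamer AATAAA, in capitals, of which the first base is number 28 counted back from the end of the clone:
F630314A02: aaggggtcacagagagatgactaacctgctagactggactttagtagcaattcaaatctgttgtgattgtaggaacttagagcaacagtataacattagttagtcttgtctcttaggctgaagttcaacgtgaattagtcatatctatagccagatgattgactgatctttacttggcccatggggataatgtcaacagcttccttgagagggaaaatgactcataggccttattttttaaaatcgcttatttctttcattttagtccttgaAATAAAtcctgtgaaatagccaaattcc

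The first exon of A730059F07 (chr5:147956982-147957166, minus strand) and the promoter window of Mtus2 (chr5:147957070-147957369, plus strand, from 250 bases before to 50 bases after the gene start) share 97 bases on opposite strands, in capitals in both. The window holds 28 CpG dinucleotides and 1 GGGCGG, a letter pattern read by Sp family factors, and no TATAAA. The first exon of C130014E09 (chr4:36952966-36953130, plus strand) is given with no part marked:
A730059F07: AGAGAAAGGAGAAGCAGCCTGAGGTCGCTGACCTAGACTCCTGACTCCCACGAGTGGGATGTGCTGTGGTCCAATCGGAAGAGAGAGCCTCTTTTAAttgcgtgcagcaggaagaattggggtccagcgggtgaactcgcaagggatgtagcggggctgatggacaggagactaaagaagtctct
Mtus2 promoter: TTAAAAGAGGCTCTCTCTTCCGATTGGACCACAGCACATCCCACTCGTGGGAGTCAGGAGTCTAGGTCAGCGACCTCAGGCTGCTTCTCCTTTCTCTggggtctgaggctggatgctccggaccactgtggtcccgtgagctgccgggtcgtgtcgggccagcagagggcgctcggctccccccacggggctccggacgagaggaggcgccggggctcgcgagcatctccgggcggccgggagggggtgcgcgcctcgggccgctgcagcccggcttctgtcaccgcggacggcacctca
C130014E09: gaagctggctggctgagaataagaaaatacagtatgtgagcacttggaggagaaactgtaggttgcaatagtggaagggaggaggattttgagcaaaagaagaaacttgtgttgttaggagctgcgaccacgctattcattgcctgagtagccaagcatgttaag

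The mature miRNAs below belong to hairpins within 5 kb of a clone that rose. Capitals mark the seed, bases 2 to 8, which pairs with target messages, and no 2 of the 4 share a seed:
mmu-miR-21a-5p: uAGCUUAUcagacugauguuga
mmu-miR-142a-5p: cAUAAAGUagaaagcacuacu
mmu-miR-142a-3p: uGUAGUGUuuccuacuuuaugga
mmu-miR-146b-5p: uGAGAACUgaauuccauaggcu

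In injured cortex a smaller share of these rows was called than of all rows tested. Of 3046 members, 3005 passed the filter on low counts and were tested in the edgeR quasi-likelihood fit over all gene rows, and 41 were not tested. At a Benjamini-Hochberg adjusted p under 0.05, 127 were higher and 160 lower in TBI, 287 or 9.55% of those tested, where 17.5% of all 42762 rows tested were called (9.12% higher and 8.36% lower) and 26.1% of 16941 named gene rows (15.4% higher and 10.7% lower). At an unadjusted p under 0.05 there were 548 members. The median log2 fold change was 0.03 over members and 0.01 over all rows. Of the 127 higher members, 31 had a control mean count under 10 and so reached the count limit only through TBI libraries, and of the 160 lower members 2 had a TBI mean count under 10, so these had to differ to be members at all. Rises reached further than falls, as they did over all rows. Of the called members 87 were at least 2-fold higher and 29 at least 2-fold lower, beside 1847 and 291 of all 42762 rows tested. The 3 TBI and 3 control values did not overlap in 472 members with TBI higher and 248 with TBI lower, beside 34.5% of all rows tested, and 277 of the 287 called members were among them.

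The share called rose with the mean count. Among members with a mean count of 10 to 30, 4.24% were called, beside 15.1% of named gene rows of the same mean count, and from 100 to 300 the shares were 11.6% and 29.7%. Above 1000 the order turned, with 53 of 126 members called (42.1%) beside 27.6% of named gene rows. Of the called members above 1000, 5 were higher and 48 lower in TBI. Called named gene rows of that mean count leaned to falls too, with 811 higher and 1398 lower.

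By distance to the nearest named gene, the share called was lowest beyond 100 kb and highest from 1 to 10 kb. Within 1 kb of a named gene 23 members were higher and 45 lower of 879 tested (7.74%), and from 1 to 10 kb 54 and 73 of 1104 (11.5%). From 10 to 100 kb there were 35 higher and 36 lower of 705 (10.1%), and beyond 100 kb 14 and 6 of 301 (6.64%). Over all 1006 tested members beyond 10 kb, 49 were higher and 42 lower (9.05%). Members in exons of GENCODE protein-coding genes had 15 higher and 49 lower of 408 tested (15.7%), while members over no GENCODE gene had 50 higher and 32 lower of 1006 (8.15%). The classes also differed in mean count, with which the share called rose. The median mean count of tested members was 255.5 in exons of protein-coding genes and 46.7 over no GENCODE gene. By distance it was 57.5 within 1 kb, 72.8 from 1 to 10 kb, 42 from 10 to 100 kb and 47.2 beyond 100 kb. The differences between these classes were not tested.

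**Figure D1:**
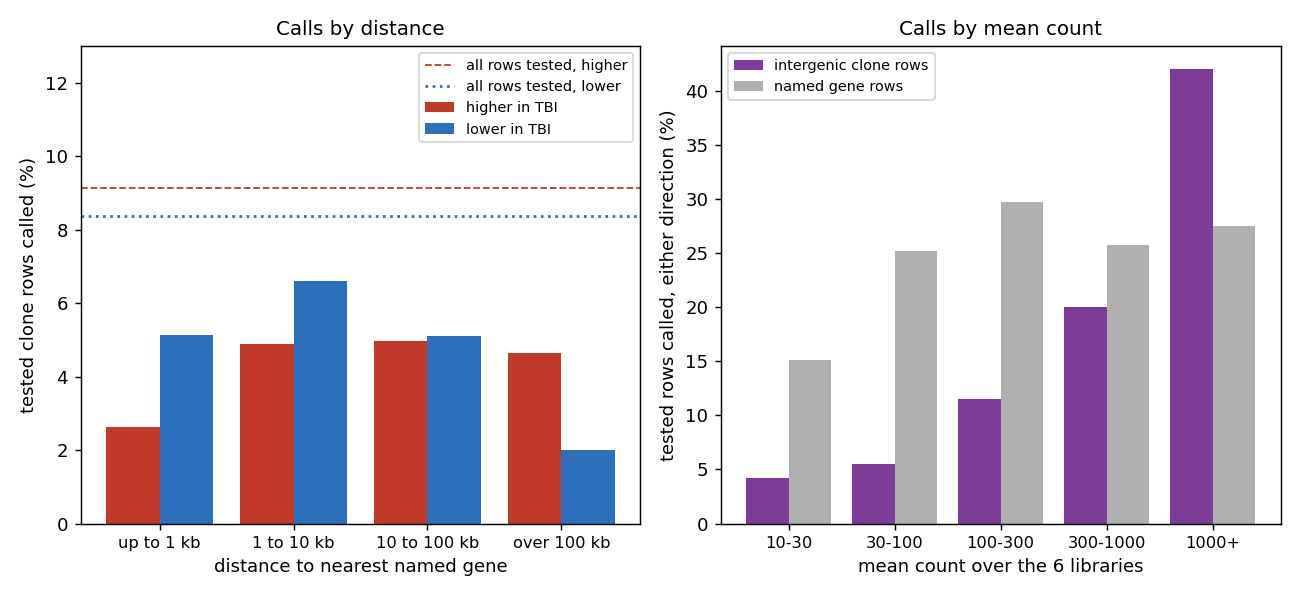
Share of tested clone rows called (%, edgeR adjusted p under 0.05). Left: clone rows higher (red) and lower (blue) in TBI by distance to the nearest named gene, with lines at the shares over all gene rows tested (9.12% and 8.36%); all bars stay under both lines. Right: clone rows (purple) and named gene rows (grey) called in either direction by mean count over the 6 libraries; clone rows are below named rows up to a mean count of 1000 and above them (42.1% against 27.6%) beyond it.

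The cell types marked in these libraries moved with the groups. Of the marker lists, 6 of 6 myeloid genes (summed RPKM 51.0 to 70.1 in TBI, 9.84 to 11.4 in control), 4 of 4 neutrophil genes (34.3 to 102 in TBI, 0.546 to 2.63 in control), 3 of 4 choroid plexus genes (252 to 618 in TBI, 87.9 to 167 in control), 2 of 4 endothelial genes (39.8 to 42.1 in TBI, 26.4 to 29.9 in control) and 2 of 2 erythroid genes (104 to 208 in TBI, 47.6 to 78.9 in control) were higher. Astrocyte genes were 3 higher and 2 lower of 5 (425 to 475 in TBI, 297 to 324 in control). The higher astrocyte sum rests on Gfap (179 to 221 in TBI, 17.8 to 24.7 in control), while Slc1a2 and Gja1 were lower. Most of the choroid plexus sum was Ttr (247 to 606 in TBI, 85.1 to 163 in control). Neuronal genes were 3 lower of 6 (1046 to 1169 in TBI, 1290 to 1399 in control). None of 4 oligodendrocyte genes (482 to 767 in TBI, 429 to 761 in control) and none of 3 genes of hippocampus and striatum (55.5 to 96.6 in TBI, 43.0 to 103 in control) was called. RPKM is the count scaled by row length and by the column total. No marker found in the table was at 0 in all libraries. The part of these cell types in the changes of the clone rows was not tested.

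F630314A02 had the largest rise among rows with a mean RPKM of at least 0.5 in the higher group. This spliced clone on chromosome 5 (43784046 to 43786115, minus strand) lies 1897 bases upstream of Fbxl5, a subunit of an iron-sensing ubiquitin ligase, on the same strand, in an exon of the GENCODE gene Gm43181. It had 83, 64 and 89 counts in TBI libraries and 3, 2 and 2 in control libraries, and is one of the members that reached the count limit only through TBI libraries. Every TBI library was far above every control library, and the mean level was 0.569 ± 0.106 RPKM in TBI and 0.0162 ± 0.0057 RPKM in control (SD, n = 3 each). The row had to differ to be a member. Its fitted log2 fold change of 5.01 ± 0.39 (SE) is therefore given as a description, with no test. Fbxl5 itself was not called (log2 fold change -0.06, edgeR adjusted p = 0.689). The next gene, Bst1, which codes for a surface ADP-ribosyl cyclase of leukocytes and stromal cells, lies 32765 bases away and was higher (log2 fold change 3.33, edgeR adjusted p = 6.33e-05).

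Further rows with large rises sit in no GENCODE gene. A130040M12 (chromosome 11, 86811828 to 86814524, minus strand) lies 4168 bases upstream of Dhx40, an RNA helicase gene. It had 4009, 3524 and 5301 counts in TBI libraries and 444, 567 and 702 in control libraries, so the groups were far apart. Its log2 fold change was 2.93 ± 0.15 (SE, edgeR adjusted p = 1.23e-07), and Dhx40 was not called (log2 fold change 0.00, edgeR adjusted p = 0.996). The other 3 clones of this locus, C730003K16, I830129C17 and E430008K20, had log2 fold changes of 3.31, 3.16 and 3.81 and share reads with it.

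G730026I11 (chromosome 19, 4062439 to 4065879, minus strand), 2848 bases upstream of BC021614, had 6.86, 6.12 and 8.81 RPKM in TBI libraries and 0.791, 0.925 and 0.976 RPKM in control libraries. Its log2 fold change was 2.93 ± 0.14 (SE, edgeR adjusted p = 6.22e-08), and BC021614 was at 0 counts in all control libraries and in 2 of the TBI libraries and was not tested. 3930401B19 (chromosome 13, 55184771 to 55186647, plus strand), 16012 bases downstream of the growth factor receptor gene Fgfr4, had 10.4, 7.70 and 13.8 RPKM in TBI libraries and 1.01, 1.55 and 1.43 RPKM in control libraries (log2 fold change 2.91 ± 0.20 SE, edgeR adjusted p = 1.43e-06). Fgfr4 was not called (log2 fold change 1.23, edgeR adjusted p = 0.239).

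The following 3 unspliced rows lie on different chromosomes and were picked out after their values were seen. They were chosen for a large rise, a high mean count and the lack of a GENCODE gene. Their likeness to each other in these traits thus follows from the choice. E130111P11 (chromosome 11, 5555056 to 5557753) had 1164, 936 and 1590 counts in TBI libraries and 221, 208 and 316 in control libraries (log2 fold change 2.33). E430024C06 (chromosome 6, 41198491 to 41201843), inside the T-cell receptor beta region of RefSeq (Tcrb), had 1184, 988 and 1726 counts in TBI libraries and 181, 288 and 290 in control libraries (log2 fold change 2.38). All 5 clones of that locus were higher, by 2.24 to 2.79 on the log2 scale. 1200016E24 (chromosome 13, 21764550 to 21767823), in the histone gene cluster near Hist1h2bn, had 1639, 1428 and 1707 counts in TBI libraries and 266, 314 and 536 in control libraries (log2 fold change 2.13).

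In A130040M12, G730026I11, 3930401B19, E130111P11, E430024C06 and 1200016E24 alike, the highest value was in TBI replicate 3 and the lowest TBI value in TBI replicate 2. This order of the TBI libraries is not particular to these rows. All neutrophil markers had it (S100a8 19.7, 14.8 and 38.4 RPKM), and so did all oligodendrocyte markers (Mbp 262, 204 and 297 RPKM). Of the myeloid markers, Lyz2, Ccr2 and Cd68 had it, while Aif1, Itgam and Msr1 did not. The sources used here do not give whether reads with several matches in the genome were counted in such rows, and their sequence was not analysed.

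The remaining named rises reported here are 7420403C22 and clones beside miRNA hairpins. 7420403C22 (chromosome 7, 128215616 to 128220788, minus strand), in the antisense gene Gm44850 of GENCODE, lies 9250 bases from Cox6a2, a respiratory chain subunit, and 9938 bases from Itgad, a leukocyte integrin chain. It had 60, 79 and 36 counts in TBI libraries and 7, 3 and 22 in control libraries, the closest groups of the named rises (log2 fold change 2.46 ± 0.50 SE, edgeR adjusted p = 0.00443). Itgad was higher as well (log2 fold change 1.78, edgeR adjusted p = 0.00631) and Cox6a2 was not called (0.16, edgeR adjusted p = 0.578).

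**Figure D2:**
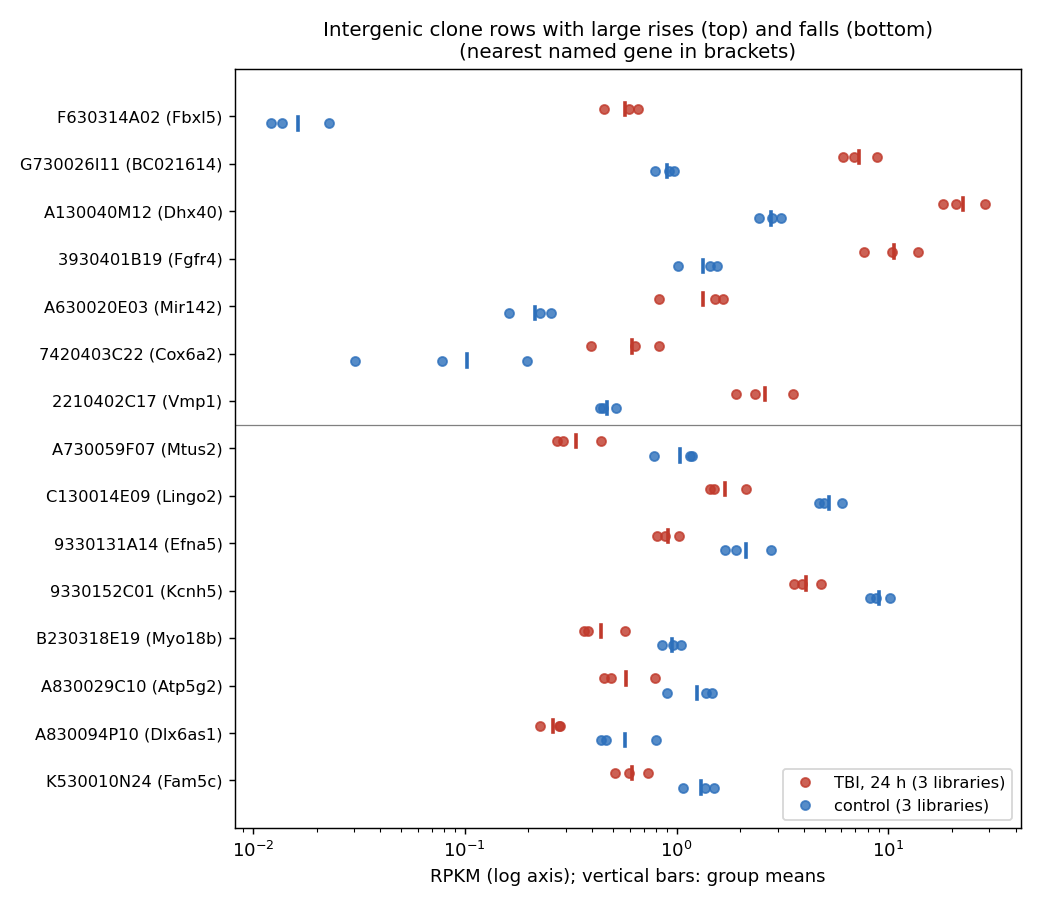
RPKM (log axis) of 7 clone rows with large rises (upper panel) and the 8 with the largest falls (lower panel), with the nearest named gene in brackets. Red points are the 3 TBI libraries and blue points the 3 control libraries, with a vertical bar at each group mean; in all 15 rows the groups do not overlap.

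Some clones lie beside miRNA hairpins. A total of 25 members lie within 5 kb of a RefSeq hairpin on the same strand. Of these, 4 were called, 3 higher and 1 lower, which is no larger a share than the 17.5% called over all rows tested. Among the higher rows, A630020E03 and F830225L15 reached the count limit only through TBI libraries, so they had to differ to be members. Only the rise of 2210402C17 did not depend on the limit. miR-21, miR-142 and miR-146b are known from inflammation and from blood cells, and clone rows of this kind can hold pieces of their primary transcripts, though the deposited rows do not show which transcript a read came from.

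2210402C17 (chromosome 11, 86581201 to 86581694, minus strand) lies 2373 bases downstream of the Mir21 row (Mir21a in RefSeq) and 2158 bases past the end of Vmp1, an autophagy gene that holds the hairpin near its end. It had 83, 68 and 121 counts in TBI libraries and 15, 19 and 18 in control libraries. No control library came near the TBI libraries, and the mean level was 2.61 ± 0.85 RPKM in TBI and 0.468 ± 0.045 RPKM in control (SD, n = 3 each; log2 fold change 2.39 ± 0.30 SE, edgeR adjusted p = 0.000166). Neither Vmp1 (log2 fold change 0.20, edgeR adjusted p = 0.242) nor the row of the hairpin itself (0.50, edgeR adjusted p = 0.494) was called.

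A630020E03 (chromosome 11, 87755578 to 87755946, plus strand) lies 918 bases upstream of Mir142 in the host lincRNA Mir142hg. With a control mean count under 10, it too reached the limit only through TBI libraries. It had 40, 22 and 42 counts in TBI libraries and 4, 7 and 7 in control libraries. Its fitted log2 fold change of 2.52 ± 0.44 (SE) is therefore given as a description, with no test. The row of Mir142 did not pass the filter, and the nearby gene Bzrap1 was not called (log2 fold change -0.22, edgeR adjusted p = 0.0901). F830225L15 (chromosome 19, 46345427 to 46347142, plus strand), below the level asked of named rows and picked out after its values were seen, lies 2557 bases downstream of Mir146b, in the body of the GENCODE gene Mfsd13a. It had 13, 20 and 23 counts in TBI libraries and 2, 2 and 0 in control libraries. Its mean count of 10 is at the limit of the rule and was reached through TBI libraries alone, so its fitted log2 fold change of 3.69 is given as a description, with no test.

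The fall was in B230112B02 (chromosome 14, 105625409 to 105643725, minus strand), 1639 bases from Mir6390, with 141, 153 and 151 counts in TBI libraries and 213, 229 and 294 in control libraries (log2 fold change -0.71 ± 0.14 SE, edgeR adjusted p = 0.00398). The other 21 members near hairpins, among them clones beside Mir136, Mir125b-1, Mir137, Mir7b and Mir34a, were not called.

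**Figure D3:**
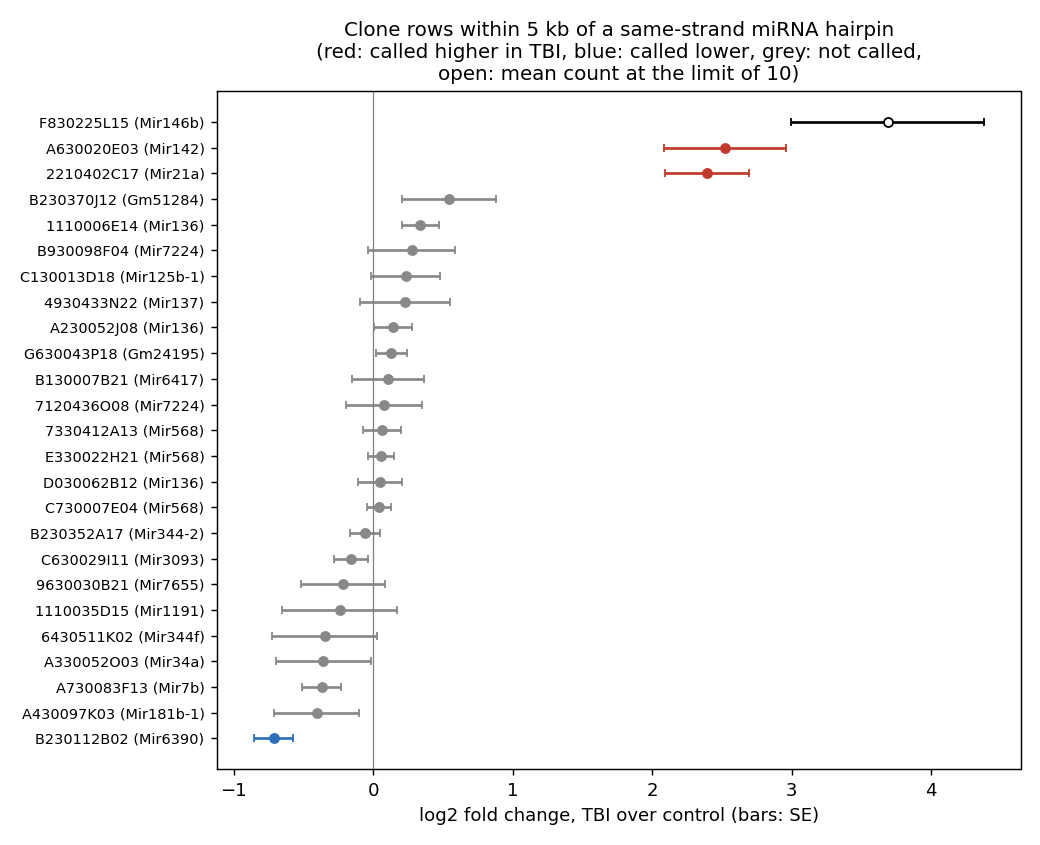
Log2 fold change, TBI over control, with its standard error, of the 25 clone rows within 5 kb of a miRNA hairpin on the same strand (hairpin in brackets). The clones near Mir142 and Mir21a are called higher (red, 2.52 and 2.39), the clone near Mir146b (open, 3.69) is at the count limit and is shown as a description, the clone near Mir6390 lower (blue, -0.71), and the other 21 (grey) are not called. The clone near Mir142 also reached the count limit only through TBI libraries and is likewise a description.

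Of the 8 named falls, 6 lie beside a named gene that fell too at the adjusted p of 0.05. C130014E09 (chromosome 4, 36952966 to 36988024, plus strand; GENCODE and RefSeq Gm12371) starts 787 bases from the edge of the deposited row of Lingo2, a neuronal leucine-rich repeat membrane protein, on the opposite strand. The Lingo2 start of the RefSeq promoter table lies 234003 bases from the start of the clone, so the distance depends on the annotation. The clone had 1.44, 2.12 and 1.503 RPKM in TBI libraries and 4.70, 6.03 and 4.98 RPKM in control libraries. All control values were well above the highest TBI value. The log2 fold change of the clone was -1.71 ± 0.17 (SE, edgeR adjusted p = 2.53e-05), and that of Lingo2 was -0.59 (edgeR adjusted p = 0.000395).

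A730059F07 (chromosome 5, 147949882 to 147957166, minus strand; GENCODE Gm15721) starts 154 bases before the start of Mtus2, a microtubule-associated scaffold, and runs away from it on the other strand. It had 0.442, 0.272 and 0.290 RPKM in TBI libraries and 1.19, 0.783 and 1.16 RPKM in control libraries, with no overlap. The log2 fold change was -1.72 ± 0.23 for the clone (SE, edgeR adjusted p = 0.000267) and -0.46 for Mtus2 (edgeR adjusted p = 0.00722). 9330131A14 (chromosome 17, 62885077 to 62887633, plus strand), 3760 bases upstream of the axon guidance ligand Efna5 on the opposite strand, had 1.03, 0.813 and 0.887 RPKM in TBI libraries and 2.79, 1.69 and 1.91 RPKM in control libraries (log2 fold change -1.31 ± 0.19 SE, edgeR adjusted p = 0.000581; Efna5 -0.82, edgeR adjusted p = 0.000336). These clones were chosen for their falls and their genes were not, so the 2 sizes are not compared.

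K530010N24 (chromosome 1, 146419436 to 146494951, minus strand; Gm29514), 19767 bases upstream of Fam5c on the opposite strand, had 0.514, 0.595 and 0.735 RPKM in TBI libraries and 1.07, 1.36 and 1.501 RPKM in control libraries (log2 fold change -1.18 ± 0.19 SE, edgeR adjusted p = 0.000915). Fam5c, a neuronal secreted protein gene, had a log2 fold change of -0.81 (edgeR adjusted p = 0.00123).

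Downstream of the potassium channel gene Kcnh5, 9330152C01 (chromosome 12, 74887520 to 74889994, minus strand) begins 7223 bases past its end. It had 3.90, 3.59 and 4.79 RPKM in TBI libraries and 10.2, 8.79 and 8.18 RPKM in control libraries (log2 fold change -1.23 ± 0.12 SE, edgeR adjusted p = 2.68e-05). D030056M23, 1647 bases past the end of the same gene and picked out after its values were seen, had 6.37, 5.35 and 7.61 RPKM in TBI libraries and 14.97, 13.4 and 12.5 RPKM in control libraries (log2 fold change -1.16 ± 0.12 SE, edgeR adjusted p = 4.91e-05). Kcnh5 averaged 6.84 ± 0.75 RPKM in TBI and 13.1 ± 2.15 RPKM in control (SD, n = 3 each; log2 fold change -1.01, edgeR adjusted p = 0.000112), so the nearer clone was at the level of the gene in both groups. No GENCODE gene covers either clone.

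A830094P10 (chromosome 6, 6808360 to 6812560, minus strand), 7986 bases downstream of Dlx6as1, a lncRNA gene of the interneuron lineage, had 27, 27 and 21 counts in TBI libraries and 42, 80 and 50 in control libraries (log2 fold change -1.19 ± 0.31 SE, edgeR adjusted p = 0.0177). Its call was lost without TBI replicate 1, TBI replicate 3 or control replicate 2, with log2 fold changes of -1.25, -1.10 and -0.88. B230318E19 (chromosome 5, 112649367 to 112652112, plus strand; Gm42864), 36764 bases from Myo18b, had 39, 59 and 36 counts in TBI libraries and 93, 91 and 126 in control libraries (log2 fold change -1.20 ± 0.23 SE, edgeR adjusted p = 0.0036). A830029C10 (chromosome 15, 102657695 to 102660402, plus strand; Gm4544), downstream of Atp5g2 on the opposite strand, had 30, 33 and 51 counts in TBI libraries and 86, 62 and 115 in control libraries (log2 fold change -1.19 ± 0.29 SE, edgeR adjusted p = 0.0132), and was no longer called without TBI replicate 1 (-1.05) or control replicate 3 (-1.05). Neither Myo18b (log2 fold change 0.27, edgeR adjusted p = 0.365) nor Atp5g2 (0.09, edgeR adjusted p = 0.57) was called.

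Clones downstream of a gene on the same strand often had the sign of that gene. Within 10 kb there were 863 such pairs with both rows tested, and their log2 fold changes had a Pearson r of 0.66 and a Spearman rho of 0.54 over pairs, with the same sign in 69.8%. For the next-nearest gene the r was 0.06 over 762 pairs and the signs matched in 52.2%. Both rows were called in 69 pairs, on 53 genes, and all 69 had the same sign. In 35 pairs the clone alone was called and in 119 the gene alone. All pairs share the 6 libraries, clones of a locus share reads, and 329 of 887 members at this position lie in protein-coding exons of GENCODE, so the r is a description with no test. The level of the clone was a median 0.188 of that of the gene in RPKM (quartiles 0.0476 and 0.609).

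Falls among these pairs included clones at genes of synapses and neuronal receptors. 9630041G16, 527 bases past the end of Frrs1l, an auxiliary protein of AMPA receptors, had 64.8, 63.9 and 60.4 RPKM in TBI libraries and 86.3, 74.3 and 85.0 RPKM in control libraries (log2 fold change -0.46 ± 0.08 SE, edgeR adjusted p = 0.00246; Frrs1l -0.45). B230036G05 downstream of the NMDA receptor subunit gene Grin2a had a log2 fold change of -0.62 (gene -0.58), and A830028E23 downstream of Grin2b had -0.61 (gene -0.50). GENCODE places 9630041G16, B230036G05 and A830028E23 in exons of Frrs1l, Grin2a and Grin2b. By that annotation clone and gene are not separate transcripts there. At Homer1, a scaffold of the postsynapse, the clones F830224L14, C630028L20 and B930041O05 had -0.72, -0.68 and -0.53 (gene -0.66). B230204J04 beyond Shc3, a neuronal adaptor, had 14.9, 14.1 and 15.3 RPKM in TBI libraries and 24.4, 24.2 and 25.002 RPKM in control libraries, among the tightest groups in the set (log2 fold change -0.81 ± 0.08 SE, edgeR adjusted p = 2.3e-05; Shc3 -0.74).

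A330042O22, in an exon that GENCODE gives to the GABA receptor gene Gabra2, had a wider spread. It had 6.89, 8.17 and 15.7 RPKM in TBI libraries and 15.1, 17.1 and 18.9 RPKM in control libraries, so TBI replicate 3 lay among the controls (log2 fold change -0.82 ± 0.23 SE, edgeR adjusted p = 0.0271; Gabra2 -0.78).

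Rises among the downstream pairs included clones at Pdpn, Lcp2, Ctsc, Jun and Rnf125. C130050B19, 531 bases past Pdpn, which codes for the membrane glycoprotein podoplanin, had 0.255, 0.335 and 0.445 RPKM in TBI libraries and 0.0539, 0.0217 and 0.0576 RPKM in control libraries (log2 fold change 2.85 ± 0.40 SE, gene 2.68). A130022E21 past Lcp2, an adaptor of leukocyte receptor signalling, had a log2 fold change of 1.93 (gene 2.01), E030013P05 past the lysosomal protease gene Ctsc 1.73 (gene 2.60), B730047E09 past the transcription factor gene Jun 1.5 (gene 1.40) and I420016L07 past Nfam1 1.43 (gene 1.51). At Rnf125, a ubiquitin ligase gene, C730049O14 and A430025O05 had 1.77 and 1.80 (gene 1.58). Past Vwa5a, A230074C07 and 7330406N15 had 0.99 and 1.05 (gene 1.36). Mean counts over the 6 libraries were 34.3 for C130050B19 and 15.3 for A130022E21. Both had a control mean count under 10, so they reached the count limit only through TBI libraries and had to differ to be members. Their fold changes are given as a description, with no test. GENCODE places I420016L07 in an exon of Nfam1 itself.

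Neat1, the lncRNA that builds paraspeckles, exists in a short and a long form that share a start, and the table's named row holds the short one. F630311A01, 2124 bases past that row, had 4.84, 2.64 and 3.85 RPKM in TBI libraries and 1.21, 1.46 and 1.28 RPKM in control libraries (log2 fold change 1.44 ± 0.19 SE, edgeR adjusted p = 0.00024). 5830408G10, 6362 bases past it, had 2.50, 1.44 and 2.37 RPKM in TBI libraries and 0.791, 0.799 and 0.908 RPKM in control libraries (log2 fold change 1.25 ± 0.20 SE, edgeR adjusted p = 0.00108). Both lie in GENCODE exons of Neat1 and, with all TBI libraries above all control libraries, went up with the named row (23.1 ± 3.83 RPKM in TBI and 7.01 ± 0.43 RPKM in control, SD, n = 3 each; log2 fold change 1.64).

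**Figure D4:**
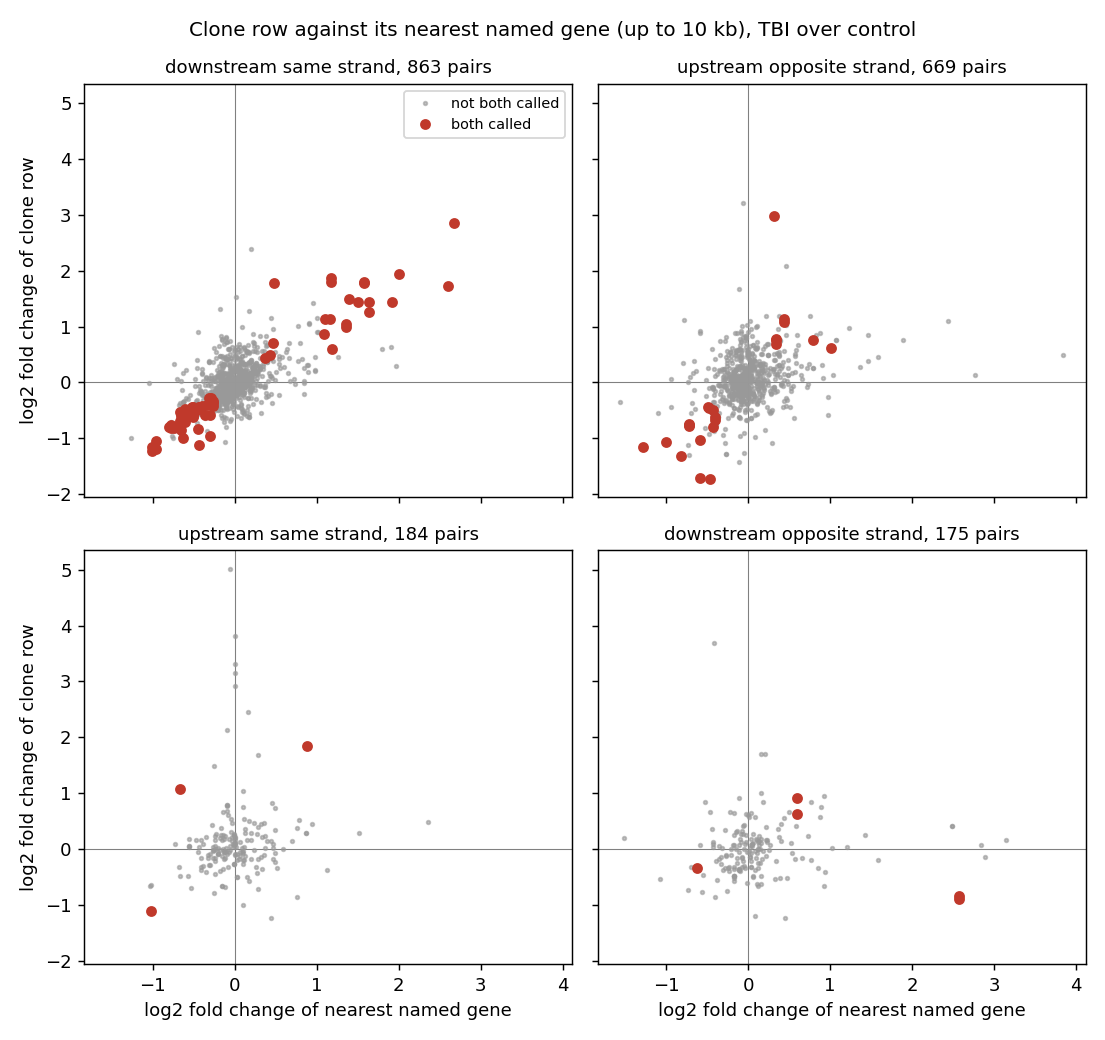
Log2 fold change of a clone row (vertical) against that of its nearest named gene within 10 kb (horizontal), TBI over control, by the position of the clone relative to the gene. Red points are pairs with both rows called; downstream on the same strand all 69 lie in the quadrants of equal sign and the pairs have an r of 0.66, and the other positions show a wider scatter.

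Clone ends often carried the hexamer that precedes polyadenylation. For 1213 members both ends lie in GENCODE exons of the same strand, so that their last and first 50 bases could be read. AATAAA, searched on the transcript strand, was in the last 50 bases of 578 (47.7%) and in the first 50 bases of 20 (1.65%), and its variant ATTAAA, counted where AATAAA was absent, in 12.0% and 1.81%. The share with AATAAA at the end was 48.0% of members that rose, 47.9% of those that fell and 47.6% of those not called.

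Clones upstream of a gene on the opposite strand were set against their gene in the same way. Within 1 kb there were 473 tested pairs, with an r of 0.41, a rho of 0.35 and the same sign in 60.0%, and over the next-nearest gene an r of 0.00. In 13 pairs both rows were called, and in all 13 the sign was the same, as it was in 10 of 10 pairs from 1 to 10 kb. Within 1 kb the clone alone was called in 12 pairs and the gene alone in 92. The levels were a median 0.0541 of that of the gene in RPKM. The difference in r between the positions was not tested.

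Besides Mtus2 and Lingo2, falls on this side included the following. M5C1085G05 by the calcium-dependent kinase gene Camkk2 had a log2 fold change of -1.15 (gene -1.29), A330016B08 by the homeobox gene Mkx -1.06 (gene -1.01) and A230088J07 by the calcium channel subunit gene Cacna2d1 -1.02 (gene -0.59). B230337G05 lies 70 bases from the edge of the deposited row of Cntn4, a neural adhesion protein gene, and 441184 bases from the Cntn4 start of the RefSeq promoter table. The clone had 4.69, 4.17 and 4.51 RPKM in TBI libraries and 7.90, 6.23 and 5.95 RPKM in control libraries (log2 fold change -0.67 ± 0.15 SE, edgeR adjusted p = 0.00694; Cntn4 -0.40). Among the rises, G370109F02 and 6430559J19 by the sulfotransferase gene Chst2 had 1.08 and 1.13 (gene 0.43), and D130037M23 by Erbb2ip, which codes for the scaffold erbin, had 0.61 (gene 1.01).

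Not every such clone moved with its gene. C630028A20 (chromosome 4, 154637576 to 154644716, plus strand; Prdm16os in RefSeq), 118 bases from the edge of the deposited row of Prdm16, a zinc finger transcription factor gene, had 1.39, 1.57 and 1.25 RPKM in TBI libraries and 2.65, 2.93 and 2.91 RPKM in control libraries (log2 fold change -1.09 ± 0.11 SE, edgeR adjusted p = 3.94e-05). Prdm16 was not called (log2 fold change 0.29, edgeR adjusted p = 0.331). This clone was picked out after its values were seen.

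RefSeq promoters with a start near these upstream clones held many CpG dinucleotides. Of 492 members within 1 kb, 387 were matched to a RefSeq promoter by the gene name. The RefSeq start was at most 300 bases from the clone start for 255 of them and at most 1 kb for 366, and for the other 21 it was farther, up to 441184 bases. The 366 gave 318 different promoters. In these 300-base windows GGGCGG, on either strand, was present in 78.0%, against 46.2% of all 21262 protein-coding promoters of the table. TATAAA, on either strand, was in 3.14%, against 12.6%, and the median number of CpG dinucleotides was 27, against 13. GGGCGG holds a CpG on either strand, so the share with GGGCGG and the number of CpG are not separate features. The 318 promoters lie beside clones with a mean count of at least 10 in these cortex libraries, and they were not limited to protein-coding genes. The 21262 promoters were not chosen by expression in cortex. These sets thus differ in more than a clone beside the promoter, and the part of expression in the differences was not tested. A match shows letters in a window and no binding.

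At the remaining positions few pairs had both rows called. Upstream on the same strand, 7 pairs at any distance had both rows called and 4 had the same sign, and downstream on the opposite strand it was 6 of 9. 4732414L14 (chromosome 6, 127772373 to 127774650, minus strand), 3214 bases upstream of Prmt8, a brain arginine methyltransferase gene, on the same strand and picked out after its values were seen, had 0.919, 1.02 and 0.842 RPKM in TBI libraries and 1.98, 1.91 and 1.77 RPKM in control libraries (log2 fold change -1.10 ± 0.14 SE, edgeR adjusted p = 0.000175), beside -1.01 for Prmt8.

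Far from any named gene, the called rows included a lncRNA on chromosome 15 that fell. D130061H07 (24981282 to 24984670, minus strand), 378607 bases from Basp1, a growth cone protein gene, had 0.783, 0.769 and 0.952 RPKM in TBI libraries and 1.37, 1.21 and 1.39 RPKM in control libraries (log2 fold change -0.75 ± 0.14 SE, edgeR adjusted p = 0.00282). D130064O10 (24987765 to 24990197) and 7630402I05 (25004132 to 25027301), 373080 and 335976 bases from Basp1, had log2 fold changes of -0.95 ± 0.21 and -0.70 ± 0.16 (SE, edgeR adjusted p = 0.00864 and 0.0108), and neither was called without control replicate 3 (-0.80 and -0.53). All 3 lie in the GENCODE lincRNA Gm2824. Basp1 was lower as well (log2 fold change -0.36, edgeR adjusted p = 0.03), as was the next gene, Gm5468 (-0.73, edgeR adjusted p = 0.0264). The row of 2410039M03 (chromosome 15, 49168946 to 49169426, minus strand), 376758 bases from Csmd3 with no GENCODE gene, went the other way, with 100, 75 and 95 counts in TBI libraries and 38, 35 and 49 in control libraries (log2 fold change 1.15 ± 0.23 SE, edgeR adjusted p = 0.00413).

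Some loci hold many clones. The largest, with 37 members, lies in the GENCODE body of Lsamp, a neuronal adhesion protein gene: none was called, 34 had a negative log2 fold change and the median was -0.30. All 6 clones of a locus in GENCODE Copg2 on chromosome 6 (30805266 to 30807552) were lower, with log2 fold changes of -0.51 to -0.35. Such clones overlap and share reads, so they do not count as separate observations.

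The highest members of all are mitochondrial. The table has no named mitochondrial rows, so 12 mitochondrial clones pass the rule, and they held 14.01 to 15.1% of the total count in TBI libraries and 13.1 to 14.8% in control libraries. The highest was 1010001E19 over mt-Rnr2, the large ribosomal RNA, with 3713288, 3843330 and 3898466 counts in TBI libraries and 3333319, 4145598 and 4383876 in control libraries (log2 fold change -0.04, edgeR adjusted p = 0.825). D830037B04 over mt-Rnr1 (0.16, edgeR adjusted p = 0.258), D030018G08 (0.03, edgeR adjusted p = 0.844) and 0610041I18 (0.07, edgeR adjusted p = 0.696) were not called either, though D830037B04 was called without control replicate 2 (0.24). I420007J21, on the plus strand over mt-Nd6, which is coded on the minus strand, had 274, 268 and 254 RPKM in TBI libraries and 188, 207 and 190 RPKM in control libraries (log2 fold change 0.37 ± 0.07 SE, edgeR adjusted p = 0.00318).

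Among nuclear members the highest levels were those of F730007A20 (117 ± 8.96 RPKM in TBI, 116 ± 12.0 in control), D930027H23 in the lincRNA 1700020I14Rik (77.4 ± 8.41 in TBI, 100.003 ± 5.56 in control), 2310051E17 past Klf9 (80.6 ± 12.7 in TBI, 87.1 ± 10.1 in control), 9630041G16 past Frrs1l and 9630042N02 past D3Bwg0562e (SD, n = 3 each). D930027H23 was lower (log2 fold change -0.45 ± 0.09 SE, edgeR adjusted p = 0.00352), as was 9630042N02 (-0.42, edgeR adjusted p = 0.00345), in the exon that GENCODE gives to Plppr4. F730007A20, which spans a small nuclear RNA gene of GENCODE, and 2310051E17, in an exon that GENCODE gives to Klf9, were not called (-0.07 and -0.20, edgeR adjusted p = 0.64 and 0.321).

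Reads of the 2 strands are not treated as separable in these counts. In 13 pairs of members that overlap by at least 90% on opposite strands, the lower RPKM was a median 0.910 of the higher (0.767 to 0.996), and in 216 such pairs on the same strand it was 0.950. Clones on the strand opposite to a gene model, such as I420007J21 and the 179 members that met a gene on the opposite strand only, may hold reads of that gene.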

How the data were processed

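RNA was sequenced from 3 TBI and 3 control cortex samples. Per the submitters' processing notes, reads were aligned with TopHat2 to mm10; the sources used here give neither the counting tool nor its strand setting. The authors deposited whole-number counts and RPKM per gene row, per the file headers. Members were the FANTOM3 rows with a usable position (2 FANTOM3 rows of 45 unusable rows have none) that overlap no named row, with a mean count of at least 10. The members and lists were chosen with earlier results of these data known.

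All gene rows were fitted with edgeR 4.0.16 in R 4.3.3 (filterByExpr with a minimum count of 10 and total of 15, TMM, quasi-likelihood F test, no replicate block, Benjamini-Hochberg adjustment over all 42762 rows tested, called at 0.05). The script was tested on simulated data. DESeq2 1.42.0, limma 3.58.1 and the settings listed in the closing section were alternatives. Positions were set against GENCODE M21 and the RefSeq table of GRCm38.p6; no genome sequence was used. Rows overlap, so a read can count in several rows. The transcript table was not used.

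Named rows are 8 loci that rose most and 8 that fell most, out of called loci whose groups do not overlap (mean RPKM of at least 0.5 in the higher group), the 5 with the highest level, the 4 farthest from a gene, and their nearest genes; others are marked as picked out after their values were seen, as are the members of pairs with both rows called. Replicates of a group differed by more than counting noise (chi-square per row 7.76 to 19.0). Each library was treated as 1 sample, though this spread does not show whether each is 1 mouse. Of the 8 rises, 1 is not reported here. Fold changes are edgeR estimates.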

Additional observations from a re-analysis of the deposited data

How the results depend on the processing

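The 127 members higher and 160 lower ranged from 86 to 140 and from 106 to 158 when 1 library was left out (106 without TBI replicate 1), the members beyond 10 kb from 36 to 56 higher and 28 to 46 lower, and all rows from 2921 to 3838 higher and 2378 to 4064 lower (2378 without control replicate 3, 2400 without control replicate 1). With a mean count of at least 50 there were 80 members higher. Members over no GENCODE gene were 50 higher and 32 lower, and members beyond 50 kb 21 and 15. These settings cover fewer rows. DESeq2 size factors, no filter, DESeq2, limma-voom, counts divided by 2, 1 row per locus and a fit without mitochondrial rows (chosen after seeing the data) left the counts of members within 1.5 times.

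Replicate numbers share only a number: deviations of libraries of the same number correlated at 0.049 to 0.055, while every library correlated best with its own number, a hint from the data and not from the design. With the replicate block 147 members were higher and 183 lower, 55 and 51 beyond 10 kb, and 4249 and 4010 of all rows.

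Over the 25 named clones and all alternatives, 310 values kept their direction and side of the threshold, 7 lost their call, 1 gained one and 2 changed sign: 0610041I18 ranged from -0.01388 (without control replicate 1) to 0.1737 and D030018G08 from -0.03902 (without TBI replicate 2) to 0.09516, neither called. Members at the count limit have too few counts for any but large changes to be called.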
